A study of Homo sapiens with 18 samples.

Results

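The 35 genes described here encode the enzymes and transporters of glycolysis, the enzymes that set its pace, and the subunits, oxygen sensors and targets of the hypoxia-inducible factor (HIF). They were chosen by name, with earlier results of these data known, from the 25369 genes in each of 2 tables of RNA sequencing data. All 35 were present in both tables. By role they comprise 2 glucose transporters (SLC2A1, SLC2A3), 8 genes from hexokinase to aldolase (HK1, HK2, GPI, PFKL, PFKM, PFKP, ALDOA, ALDOC) and 7 from triose phosphate to pyruvate (TPI1, GAPDH, PGK1, PGAM1, ENO1, ENO2, PKM). A further 4 produce or export lactate (LDHA, LDHB, SLC16A1, SLC16A3) and 4 control flux (PDK1, PFKFB3, PFKFB4, FBP1). The remaining genes are 4 HIF subunits and oxygen sensors (HIF1A, ARNT, EGLN1, EGLN3) and 6 HIF targets outside glycolysis (VEGFA, NDRG1, BNIP3, BNIP3L, ANKRD37, ADM).

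The study sequenced 18 libraries from JEKO1 and MAVER, human B cell lines of mantle cell lymphoma, in 6 groups of 3 libraries lettered A, B and C. JEKO1 cells received DMSO, the solvent control, or IB, and MAVER cells received DMSO, IB, KPT or PU, and all were harvested at 6 h. The series text names ibrutinib at 0.4 µM and selinexor at 1.5 µM, which were taken to be IB and KPT. Ibrutinib blocks the kinase BTK, and selinexor blocks XPO1, a receptor for nuclear export. The labels do not say what PU is or its dose, so the abbreviation is kept. Each line is a single model of the disease, no genetic alteration was introduced, and no group was grown at low oxygen according to the labels. Replicates are called biological, but no source used here says whether they were separate cultures, so the p-values rest on the spread among libraries, which may be technical.

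Glycolysis splits glucose into pyruvate. Hexokinases trap glucose in the cell, phosphofructokinases commit it to the pathway, and lactate dehydrogenase turns pyruvate into lactate, which monocarboxylate transporters carry out. Under low oxygen the prolyl hydroxylases EGLN1 and EGLN3 no longer mark HIF1A for destruction, and HIF1A with its partner ARNT activates many glycolytic genes together with genes for vessel growth and the removal of mitochondria. Proliferating lymphoma cells use much glucose even when oxygen is present, and MYC and B cell receptor signalling are known to raise glycolytic genes in B cells.

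The values are normalized counts, that is, reads per gene divided by a scaling factor for each library, so they are relative to the other genes of a table and are not compared between the 2 lines. Reads counted in genes, as recovered from the values, numbered 8764566 to 12627963 per library in JEKO1 and 5374226 to 17040599 in MAVER. The 35 genes took 1.67% ± 0.026 (SD, n = 3) of these reads in JEKO1 with DMSO and 1.65% ± 0.062 with IB. In MAVER they took 1.92% ± 0.0057 with DMSO, 1.78% ± 0.028 with IB, 1.96% ± 0.055 with KPT and 1.66% ± 0.043 with PU. All 10 B cell and mantle cell lymphoma markers had a mean of at least 10 in each line, and no T cell, myeloid or fibroblast marker did, whereas 1 of 5 epithelial markers in JEKO1 and 2 of 5 in MAVER did. Libraries KPT A and KPT C stood apart with 53819 and 66933 normalized counts of RNA45S5, the ribosomal RNA precursor, against 9092 in KPT B and 13835 to 19295 with DMSO. In JEKO1 the library DMSO C stood apart with 65331, against 25147 and 24253 in the other DMSO libraries and 16416 to 24758 with IB, and RNA45S5 was called lower with IB (log2 -0.84, limma adjusted p = 0.00602). Whether it plays a part in the JEKO1 results was not tested. XPO1, the target of selinexor, stood at 5232 ± 99.2 with DMSO and 11244 ± 346 with KPT. EGR1, an immediate early gene downstream of the B cell receptor, stood at 33.2 ± 9.09 with DMSO and 0.321 ± 0.556 with IB in MAVER, but at 17.7 ± 3.12 with DMSO and 211 ± 15.8 with IB in JEKO1. Directions in JEKO1 therefore hold for the labels as given, and whether labels were exchanged was not tested.

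Promoter sequence is shown for HK2, which fell furthest of the listed genes in MAVER, and for FBP1, whose IB response was called in opposite directions in the 2 lines with the labels as given. Each window holds the 250 bases before a RefSeq start on GRCh38.p14, written from 5′ to 3′ on the strand of the gene. Capitals mark ACGTG or GCGTG on either strand, the core of the HIF binding motif, and CACGTG is the E-box bound by MYC. Each E-box holds ACGTG on both strands, so it counts as 2 overlapping matches.
HK2 at chr2:74834920-74835169, plus strand: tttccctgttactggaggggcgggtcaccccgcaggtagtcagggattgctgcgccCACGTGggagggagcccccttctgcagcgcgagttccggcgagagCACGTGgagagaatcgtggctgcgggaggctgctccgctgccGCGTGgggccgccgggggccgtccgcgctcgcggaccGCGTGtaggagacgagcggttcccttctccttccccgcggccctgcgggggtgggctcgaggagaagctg
FBP1 at chr9:94639519-94639768, minus strand: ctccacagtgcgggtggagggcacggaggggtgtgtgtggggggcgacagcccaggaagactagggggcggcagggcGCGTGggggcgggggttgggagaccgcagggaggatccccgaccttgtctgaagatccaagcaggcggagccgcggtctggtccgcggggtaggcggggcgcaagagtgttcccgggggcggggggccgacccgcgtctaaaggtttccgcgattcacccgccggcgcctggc
Both windows lie within the annotated gene and contain no exon base in GENCODE 29, because other transcripts start further upstream. The HK2 window held 6 core matches, including 2 E-boxes, and the FBP1 window held 1 core match and no E-box. A second HK2 window, at chr2:74833877-74834126, held 3 core matches and no E-box and is not printed because it overlaps an annotated UTR. Among the 30 listed genes with a RefSeq window, 24 had a core match in at least 1 window, and 47.4% of all 27305 genes did. An E-box was present for 8 of the 30 genes and for 7.73% of all genes. Listed genes had more windows per gene, 57 for 30 genes against 35116 for 27305. Counted by window, a core match was in 32 of 57, or 56.1%, beside 43.2% of all windows, and an E-box in 8, or 14.0%, beside 6.34%. SLC2A3, SLC16A1, VEGFA, NDRG1 and BNIP3L had no entry. A match describes the letters in the window and is not a measured binding site.

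**Figure D1:**
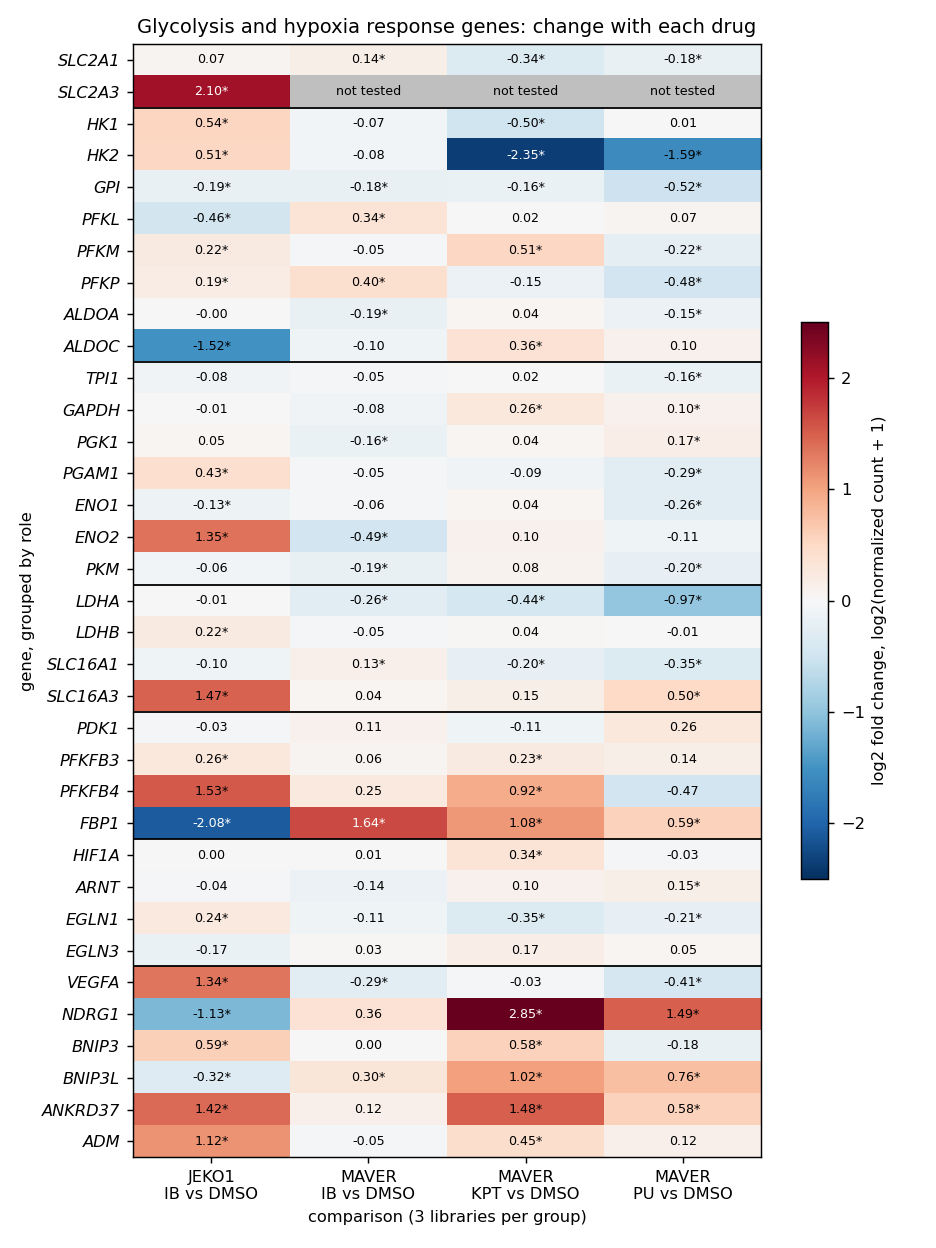
Log2 fold change of each of the 35 genes (rows, grouped by role with black lines between roles) in the 4 comparisons of a drug with DMSO (columns, 3 libraries per group), on the log2(normalized count + 1) scale. Stars mark limma adjusted p under 0.05, and grey marks SLC2A3 in MAVER, which was too low to be tested. The darkest cells are NDRG1 (2.85) and HK2 (-2.35) with KPT, FBP1 (-2.08) with IB in JEKO1, FBP1 (1.64) with IB in MAVER, and SLC2A3 with IB in JEKO1, whose star is not counted as a result because its DMSO mean was under 10.

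The first comparison asked how XPO1 inhibition, KPT in MAVER, changed these genes. HK2 fell 5.11-fold and NDRG1 rose 7.30-fold, and 5 of the 6 HIF targets outside glycolysis rose together with FBP1, while most genes from triose phosphate to pyruvate were not called. Of the 34 genes tested, 12 rose and 7 fell at a limma adjusted p under 0.05 (Benjamini-Hochberg over all genes tested). These 19 genes are 55.9% of those tested, and 55.9% of all 11099 genes were called in this comparison (27.3% higher and 28.5% lower), so the listed genes were called no more often than genes at large. The groups did not overlap for 21 of the 34, against 60.4% of all genes. The median log2 fold change was 0.06 over the listed genes and 0.00 over all genes. SLC2A3 had a mean below 10 in MAVER and was not tested.

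HK2 encodes the inducible hexokinase that binds to mitochondria. Its level was 1120.1, 1119 and 1117 normalized counts with DMSO and 224, 206 and 227 with KPT. All 3 KPT libraries lay far below all 3 DMSO libraries. The log2 fold change was -2.35 ± 0.06 (SE, limma adjusted p = 5.49e-29), and it was -2.27 ± 0.06 when KPT was set against IB. In bulk RNA, fewer cells expressing a gene and less RNA per cell cannot be told apart. HK1, the widely expressed hexokinase, fell from 656 ± 15.7 to 465 ± 45.6, a log2 fold change of -0.50. The glucose transporter SLC2A1 fell by 0.34 on the log2 scale, from 2176 ± 60.8 to 1722 ± 92.9. GPI, which isomerises glucose phosphate, fell by 0.16, a call lost without KPT B (adjusted p = 0.0732). PFKM, the muscle-type phosphofructokinase, rose from 237 ± 4.04 to 339 ± 34.5 (log2 0.51), and ALDOC, the brain-type aldolase, rose by a log2 of 0.36.

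From triose phosphate to pyruvate, GAPDH alone among 7 genes was called, at 34739 ± 123 with DMSO and 41650.3 ± 1190 with KPT (log2 0.26). TPI1, PGK1, PGAM1, ENO1, ENO2 and PKM had log2 fold changes between -0.09 and 0.10 and were not called. GAPDH has 62 pseudogenes named after it in GENCODE 29, BNIP3 has 39 and PGAM1 has 13. In all, 16 of the 35 genes have a pseudogene named after them, LDHA with 6 and PKM with 5 among them. No source used here says how reads shared with such copies were counted, so levels of these 16 genes are uncertain. LDHA, which makes lactate, fell by 0.44 and the lactate and pyruvate transporter SLC16A1 fell by 0.20, whereas LDHB (0.04) and SLC16A3 (0.15) were not called.

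FBP1, fructose bisphosphatase, reverses the phosphofructokinase step. It stood at 82.0, 67.6 and 75.8 with DMSO and at 163, 152 and 162 with KPT. Every KPT library exceeded every DMSO library, and the log2 fold change was 1.08 ± 0.11 (limma adjusted p = 1.76e-10). PFKFB4 and PFKFB3 make fructose bisphosphate that activates phosphofructokinase. PFKFB4 stood at 10.1, 13.3 and 7.82 with DMSO and 21.5, 15.4 and 24.9 with KPT. The groups did not overlap, and the log2 fold change was 0.92 ± 0.36 (limma adjusted p = 0.0274). Without KPT A and KPT C, the libraries rich in RNA45S5, PFKFB4 had a log2 fold change of 0.55 and was not called (adjusted p = 0.407), and the call of PFKFB3 (0.23) was also lost (adjusted p = 0.302). Each of the DMSO A, DMSO C, KPT A and KPT C libraries, left out alone, also ended both calls, with adjusted p from 0.0573 to 0.117 for PFKFB4 and 0.0661 to 0.118 for PFKFB3. The kinase PDK1, which closes pyruvate dehydrogenase, was not called (-0.11).

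HIF1A rose from 1433 ± 33.2 to 1813 ± 41.1 (log2 0.34), and EGLN1, the main oxygen sensor that marks it for destruction, fell from 734 ± 12.5 to 578 ± 43.2 (log2 -0.35). ARNT (0.10) and EGLN3 (0.17) were not called. NDRG1, a stress-responsive gene that is among the strongest HIF targets in many cells, stood at 38.7, 40.0 and 25.8 with DMSO and at 229.5, 257 and 277 with KPT. The KPT libraries were all above the DMSO libraries, at 35 ± 7.85 and 254 ± 23.6 on average, with a log2 fold change of 2.85 ± 0.17 (limma adjusted p = 7.01e-18). ANKRD37, a small ankyrin repeat protein and HIF target, stood at 37.8, 40.0 and 36.7 with DMSO and 95.0, 107 and 126 with KPT. Its groups did not overlap either, and the log2 fold change was 1.48 ± 0.18. BNIP3L and BNIP3 mark mitochondria for removal by autophagy. BNIP3L stood at 354, 331 and 311 with DMSO and at 679.7, 641 and 701 with KPT. That is a 2.03-fold higher mean with no overlap, and the log2 fold change was 1.02 ± 0.07. BNIP3 rose from 169 ± 11.1 to 253 ± 5.14 (log2 0.58), and the vasodilator peptide ADM rose from 82.6 ± 9.78 to 112 ± 4.72 (log2 0.45). VEGFA, the vessel growth factor, stood at 242 ± 28.7 with DMSO and 238 ± 31.1 with KPT and was the only 1 of these 6 targets not called.

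**Figure D2:**
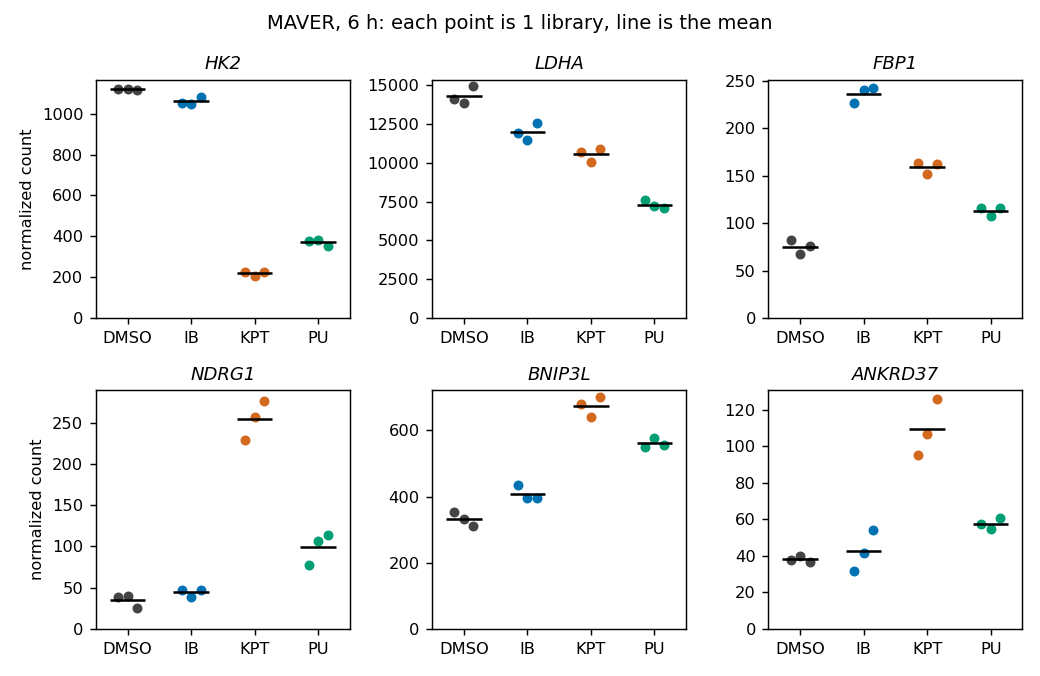
Normalized counts (vertical axis, from 0) of HK2, LDHA, FBP1, NDRG1, BNIP3L and ANKRD37 in the 12 MAVER libraries at 6 h, 1 point per library, with a line at the mean of the 3 libraries of each group. HK2 lies between 206 and 227 with KPT and between 352 and 385 with PU, below every DMSO and IB library.

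PU in MAVER gave a different profile. HK2 and NDRG1 again changed most, and LDHA fell 1.96-fold. Of the 34 genes tested, 8 rose and 14 fell, or 64.7%, beside 55.1% of all genes called in the same comparison (27.6% higher and 27.5% lower). Of these 34, 24 did not overlap between groups, against 61.2% of all genes. The median log2 fold change was -0.07 over the listed genes and 0.01 over all genes. No test was made of whether the listed genes differ from others, and the DMSO libraries are the same ones used for KPT and IB.

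With PU, HK2 stood at 377, 385 and 352, against the 1117 to 1120.1 of the DMSO libraries. No PU library came near the DMSO range. The log2 fold change was -1.59 ± 0.06 (limma adjusted p = 1.38e-23). From hexokinase to aldolase 5 of 8 genes fell and none rose. GPI fell from 6961 ± 45.6 to 4874 ± 384 (log2 -0.52), and PFKP, the platelet-type phosphofructokinase, from 263 ± 29.4 to 188 ± 9.71 (log2 -0.48). PFKM (-0.22, adjusted p = 0.0428) and ALDOA (-0.15) were the others that fell, and the PFKM call was lost under 11 of 17 alternative settings, among them the omission of any DMSO library, PU A or PU B (adjusted p 0.0508 to 0.254). The ALDOA call was lost without PU B (0.0773). HK1 (0.01), PFKL (0.07) and ALDOC (0.10) were not called, and SLC2A1 fell by 0.18.

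Further down the pathway PGAM1 (-0.29), ENO1 (-0.26), PKM (-0.20) and TPI1 (-0.16) fell, and PGK1 (0.17) and GAPDH (0.10) rose. The GAPDH call was lost under 5 of 17 alternatives, with an adjusted p of up to 0.107, including the omission of PU A (0.0519) or PU C (0.0616), and the PGAM1 call without DMSO A (0.0592). ENO2 was not called (-0.11). LDHA is described by library because its change was close to the size chosen for that, and it was picked after its values were seen. Its level was 14108, 13821 and 14941 with DMSO, 11892, 11439 and 12529 with IB, 10708, 10053 and 10892 with KPT, and 7573, 7191 and 7078 with PU. The 4 groups did not overlap in that order. The log2 fold change against DMSO was -0.97 ± 0.04 with PU (limma adjusted p = 1.41e-22), -0.44 ± 0.04 with KPT and -0.26 ± 0.04 with IB. SLC16A1 fell from 2589 ± 66.0 to 2036 ± 26.4 with PU (log2 -0.35). SLC16A3, the lactate exporter of highly glycolytic cells, moved the other way, with 152, 128 and 120.4 with DMSO and 171, 200.0 and 195 with PU. Its PU libraries lay above its DMSO libraries, and the log2 fold change was 0.50 ± 0.13 (limma adjusted p = 0.00128). LDHB was not called (-0.01).

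FBP1 stood at 116, 107 and 116 with PU, above all 3 DMSO libraries, with a log2 fold change of 0.59 ± 0.11. PDK1 (0.26), PFKFB3 (0.14) and PFKFB4 (-0.47) were not called. Neither were HIF1A (-0.03) and EGLN3 (0.05), whereas EGLN1 fell by 0.21. ARNT rose by a log2 of 0.15, a call lost under 6 of 17 alternatives, among them the omission of any DMSO library or PU C (adjusted p 0.0623 to 0.16). NDRG1 stood at 77.8, 107 and 114 with PU. Each PU library was above each DMSO library and below each KPT library, and the log2 fold change against DMSO was 1.49 ± 0.17 (limma adjusted p = 5.05e-10). BNIP3L stood at 549.7, 576 and 557 with PU (log2 0.76 ± 0.07) and ANKRD37 at 57.2, 55.0 and 60.5 (log2 0.58 ± 0.18). Both genes were above their DMSO range in every PU library. VEGFA stood at 217, 273 and 235 with DMSO and at 173, 174 and 196 with PU. It fell without overlap (log2 -0.41 ± 0.11, limma adjusted p = 0.00109). BNIP3 (-0.18) and ADM (0.12) were not called.

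PU was also set directly against KPT. Of 34 genes, 6 were higher and 20 lower with PU, or 76.5%, beside 57% of all genes called (28.3% higher and 28.6% lower), and 26 did not overlap between the groups, against 60.6% of all genes. All 6 HIF targets outside glycolysis were called lower with PU, with a median log2 difference of -0.58. The largest differences among them were NDRG1 (-1.36 ± 0.17), ANKRD37 (-0.91 ± 0.18) and BNIP3 (-0.77 ± 0.10), and HIF1A was also lower (-0.37 ± 0.05). HK2 (0.76 ± 0.06) and HK1 (0.51 ± 0.07) were higher with PU than with KPT, while PFKM (-0.73), LDHA (-0.53), GPI (-0.36), ENO1 (-0.30) and PKM (-0.28) were lower. PFKFB4 stood at 4.86, 9.63 and 7.45 with PU, below the 15.4 of the lowest KPT library, with a difference of -1.40 ± 0.36 (limma adjusted p = 0.00106). With KPT A and KPT C left out, 1 KPT library remained, and fewer genes were called both among the listed genes and over all genes. The calls of PFKFB4, BNIP3L, ADM, ALDOA, GAPDH, SLC16A1 and SLC16A3 were lost, and the ALDOA difference was -0.079. ADM was the weakest call (adjusted p = 0.0487) and was lost under 9 of 18 alternatives, including when any 1 of the KPT libraries, PU A or PU B was left out (0.0621 to 0.163). Without KPT C the call of SLC2A1 was lost (0.0542), and that of SLC16A3 without KPT A, PU B or PU C (0.062 to 0.138). Whether RNA45S5 in those libraries plays a part was not tested.

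**Figure D3:**
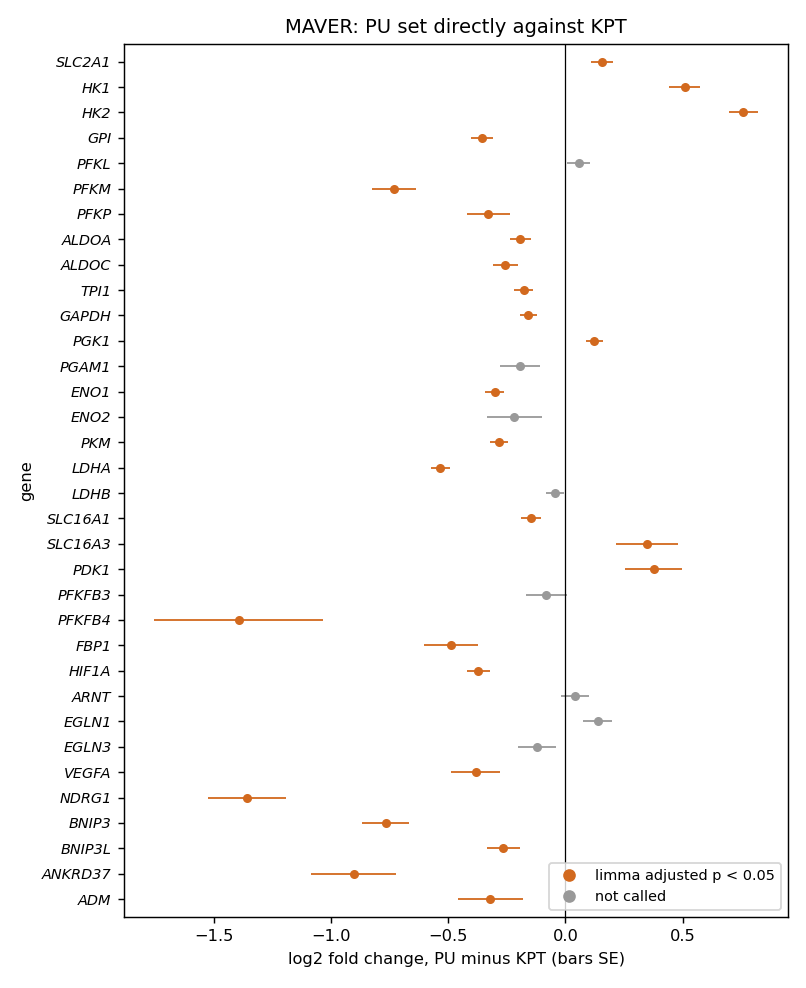
Difference between PU and KPT in MAVER for the 34 tested genes (log2 fold change, PU minus KPT, bars 1 SE, 3 libraries per group, vertical line at 0). Orange points have a limma adjusted p under 0.05. The 6 HIF targets at the bottom all lie left of 0, and HK2 (0.76) and HK1 (0.51) lie furthest right.

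Set against IB, which shares the table, KPT had 17 genes higher and 9 lower of 34, or 76.5%, beside 55.2% of all genes called (27% higher and 28.2% lower). PU had 9 higher and 11 lower, or 58.8%, beside 55.1% of all genes (27.5% higher and 27.6% lower). Groups did not overlap for 27 genes with KPT, against 58.4% of all genes, and for 22 with PU, against 59.8%. All 6 HIF targets outside glycolysis were called higher with KPT than with IB, and 3 of them with PU (NDRG1, BNIP3L, ANKRD37). The VEGFA call was lost without IB A, IB C, KPT A or KPT B (adjusted p 0.0515 to 0.208) and the ANKRD37 call with PU without IB A, IB B, PU A or PU C (0.058 to 0.237). Omitting 1 library also ended calls of ENO1 and LDHB for KPT against IB, and of TPI1, PGAM1, ENO2 and SLC16A3 for PU against IB, with adjusted p from 0.0545 to 0.219. FBP1 was lower than with IB under both, by 0.57 with KPT and 1.06 with PU on the log2 scale.

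With IB in JEKO1, PFKFB4, SLC16A3, ANKRD37, ENO2, VEGFA and ADM rose and FBP1, ALDOC and NDRG1 fell by a log2 of at least 1. These are 9 of 34 genes, beside 4.62% of all genes called with a change of this size. The counts in MAVER were 5 of 34 with KPT, 2 with PU and 1 with IB, beside 4.09%, 4.46% and 1.39% of all genes. SLC2A3 is left out of the 34 because it passed the minimum mean of 10 only through the group where it was high. Its mean was 3.85 with DMSO and 19.2 with IB. Genes of this kind were not left out of the shares over all genes. In all, 15 of the 34 rose and 7 fell, or 64.7%, while 42% of all 11609 genes were called (21.9% higher and 20.2% lower). Without the library DMSO C, rich in RNA45S5, 22 of all 35 genes were called against 23 with it. Over all genes, 4596 of 11607 tested were called without it, against 4879 of 11609 with it. With SLC2A3 counted, groups did not overlap for 25 of 35 genes, against 50.2% of all genes, and the median log2 fold change was 0.05, against -0.01 over all genes. The abundant enzymes of the lower pathway moved little.

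SLC2A3, a glucose transporter of high affinity, stood at 5.17, 4.47 and 1.91 with DMSO and at 24.6, 18.3 and 14.6 with IB. Every IB library was above every DMSO library, at a low level, and no test is given for the reason above. SLC2A14 is a near-identical copy, and no source used here says how reads shared with it were counted. SLC2A1 was not called (0.07). HK2 stood at 1572, 1577 and 1588 with DMSO and at 2501, 2189 and 2083 with IB. Its IB libraries were all higher, with a log2 fold change of 0.51 ± 0.06 (limma adjusted p = 3.44e-07). HK1 rose by a similar amount, from 868 ± 50.6 to 1260.2 ± 42.5 (log2 0.54). ALDOC moved strongly the other way, with 689, 693 and 642 with DMSO and 283, 211 and 217 with IB. That is 2.85-fold lower without overlap (log2 -1.52 ± 0.09, limma adjusted p = 6.36e-11). PFKM (0.22) and PFKP (0.19) rose, and PFKL (-0.46), the liver-type phosphofructokinase, and GPI (-0.19) fell, while ALDOA did not pass the test (0.00). The PFKP call was lost without DMSO C (adjusted p = 0.0634) or IB B (0.0651).

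ENO2, the neuron-type enolase, stood at 45.7, 52.5 and 50.6 with DMSO and 117, 139.9 and 129 with IB. Every IB library was above every DMSO library (log2 1.35 ± 0.14, limma adjusted p = 2.22e-07). PGAM1 rose by 0.43, and ENO1, the common enolase, fell by 0.13, a call lost without DMSO A, DMSO B or IB C (adjusted p 0.0561 to 0.0817). TPI1, GAPDH, PGK1 and PKM had log2 fold changes from -0.08 to 0.05 and were not called. Of the lactate genes, SLC16A3 stood at 78.5, 90.5 and 74.4 with DMSO and 326, 196 and 180.0 with IB. The groups did not overlap, although IB A was well above the other IB libraries, and the log2 fold change was 1.47 ± 0.17 (limma adjusted p = 5.17e-07). LDHB rose by 0.22, and LDHA (-0.01) and SLC16A1 (-0.10) were not called.

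PFKFB4 stood at 35.4, 26.8 and 32.4 with DMSO and 139.8, 86.0 and 65.9 with IB. No libraries overlapped (log2 1.53 ± 0.22, limma adjusted p = 1.22e-05). PFKFB3 rose by 0.26, a call lost without IB A (adjusted p = 0.0541), and PDK1 was not called (-0.03). FBP1 fell from 231, 191 and 227 with DMSO to 51.6, 43.6 and 56.5 with IB. That was 4.28-fold lower without overlap (log2 -2.08 ± 0.14, limma adjusted p = 1.84e-10). HIF1A (0.00), ARNT (-0.04) and EGLN3 (-0.17) were not called, and EGLN1 rose by 0.24.

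Among the HIF targets, VEGFA stood at 134, 118 and 145 with DMSO and 345, 298 and 368 with IB. All IB libraries were higher (log2 1.34 ± 0.10, limma adjusted p = 2.62e-09). ANKRD37 stood at 46.6, 41.4 and 34.3 with DMSO and at 114, 119 and 98.4 with IB, again without overlap (log2 1.42 ± 0.16). ADM stood at 12.1, 16.8 and 11.4 with DMSO and 35.7, 31.0 and 24.1 with IB, without overlap and at a low level (log2 1.12 ± 0.28). BNIP3 rose from 307 ± 20.6 to 463 ± 22.5 (log2 0.59). Its paralogue BNIP3L moved the other way, with 900.4, 924 and 969 with DMSO and 798, 726 and 716 with IB. The lower IB libraries did not overlap the DMSO range (log2 -0.32 ± 0.06). NDRG1 stood at 36.2, 48.1 and 41.0 with DMSO and at 28.6, 20.6 and 10.5 with IB, all lower. Its log2 fold change was -1.13 ± 0.29 (limma adjusted p = 0.00371), and -0.75 without IB C. In the same libraries MYC, an activator of glycolytic genes, stood at 11754 ± 121 with DMSO and 7369 ± 353 with IB. In MAVER MYC stood at 5327 ± 139 with DMSO and 6112 ± 158 with IB. It stood at 6605 ± 184 with KPT and 5094 ± 207 with PU in that line. The part of MYC in the changes of either line was not tested.

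**Figure D4:**
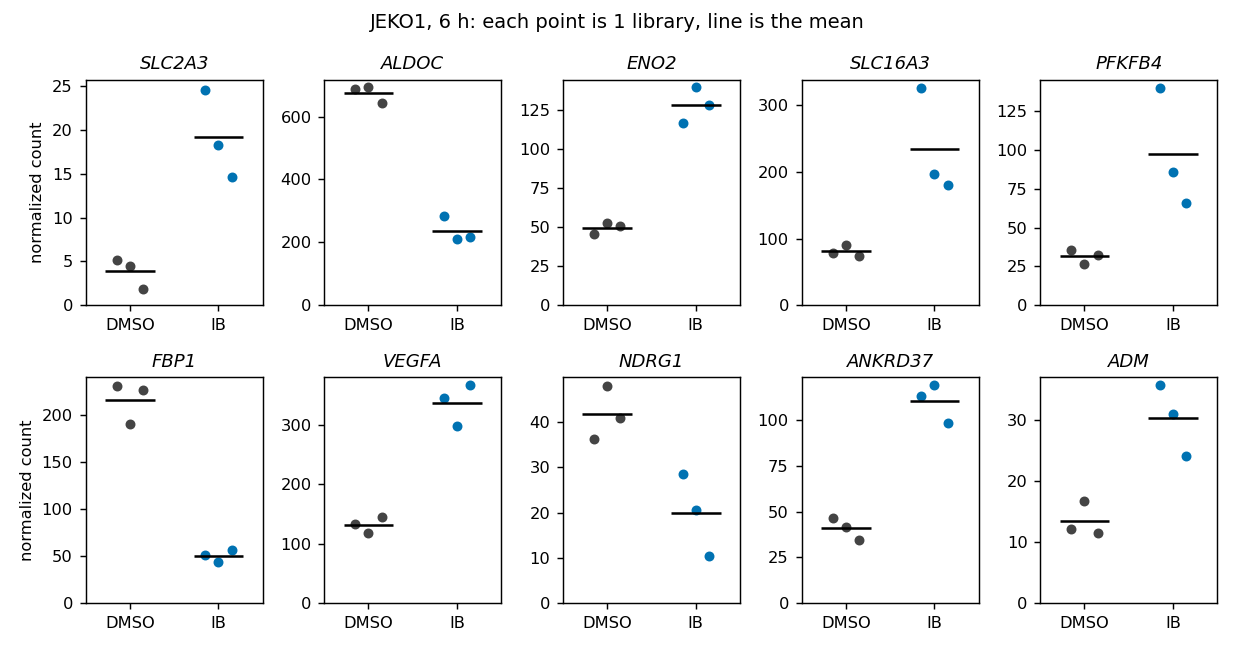
Normalized counts (vertical axis, from 0) of 10 genes in the 6 JEKO1 libraries at 6 h, 1 point per library, with a line at the mean of each group of 3. SLC2A3, ENO2, SLC16A3, PFKFB4, VEGFA, ANKRD37 and ADM are higher in every IB library, and ALDOC, FBP1 and NDRG1 are lower in every IB library, than in any DMSO library.

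With IB in MAVER, FBP1 was the only 1 of 34 genes called with a log2 change of at least 1. Of 34 genes tested, 6 rose and 7 fell, or 38.2%, while 19.8% of all 11099 genes were called (10.1% higher and 9.65% lower), and 19 genes did not overlap between groups against 33.8% of all genes. The median log2 fold change was -0.05 over the listed genes and -0.01 over all genes. FBP1 stood at 82.0, 67.6 and 75.8 with DMSO and at 226, 240.2 and 242 with IB. The IB libraries were all far above the DMSO libraries, 3.14-fold on average (log2 1.64 ± 0.11, limma adjusted p = 6.02e-15). ENO2 stood at 143, 151 and 145 with DMSO and at 114, 101 and 97.7 with IB. It fell without overlap (log2 -0.49 ± 0.12, limma adjusted p = 0.00175).

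Of the remaining called genes in MAVER with IB, PFKP (0.40), PFKL (0.34), BNIP3L (0.30), SLC2A1 (0.14) and SLC16A1 (0.13) rose. VEGFA (-0.29), LDHA (-0.26), PKM (-0.19), ALDOA (-0.19), GPI (-0.18) and PGK1 (-0.16) fell. BNIP3L stood at 434, 394 and 396 with IB, above its DMSO range of 311 to 354. VEGFA stood at 177, 215 and 201 with IB, just under its lowest DMSO value of 217, and its call (adjusted p = 0.0491) was lost under 9 of 17 alternatives, including without DMSO B, DMSO C, IB A or IB C (0.0743 to 0.274). The SLC2A1 call was lost without DMSO A, IB A or IB B (0.0636 to 0.148), and that of SLC16A1 without DMSO C (0.104) or IB C (0.0705). HK2, at 1053, 1049 and 1081, was below its DMSO range but not called (log2 -0.08, limma adjusted p = 0.453). ANKRD37 stood at 31.8, 41.3 and 54.2 and NDRG1 at 47.2, 39.1 and 46.7, both overlapping DMSO and not called. The other 18 genes tested, HIF1A (0.01) among them, had log2 fold changes between -0.14 and 0.25 and were not called.

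Whether the IB response differed between the lines was tested directly, as the difference of the effects within each table. Of 34 genes, the difference was called for 23, or 67.6%, beside 41.4% of all 10591 genes tested. For 17 the effect was more positive in JEKO1 than in MAVER and for 6 more negative, beside 21.7% and 19.7% of all genes. With the labels as given, the FBP1 difference was the largest in size, -3.72 ± 0.18 on the log2 scale (limma adjusted p = 3.24e-15). With the DMSO and IB labels of JEKO1 exchanged it was 0.44 and was not called (adjusted p = 0.0805). ENO2 (1.84 ± 0.18), VEGFA (1.63 ± 0.15), SLC16A3 (1.43 ± 0.25), ALDOC (-1.41 ± 0.11) and ANKRD37 (1.30 ± 0.27) followed among those with an adjusted p under 0.001. FBP1, PFKL, ENO2, VEGFA and BNIP3L were called in both lines in opposite directions with the labels as given. Exchanging the labels turns each JEKO1 change by construction, so these 5 would then move the same way in both lines. The difference would be called for ENO2 (-0.87) and VEGFA (-1.05). It would not be called for PFKL (0.11, adjusted p = 0.432) or BNIP3L (0.022, adjusted p = 0.9). HK2 differed by 0.59 ± 0.07 (limma adjusted p = 3.65e-07), and LDHA by 0.25 ± 0.07 (adjusted p = 0.00319). Leaving out 1 library ended the call of PFKM (JEKO1 DMSO C or IB A, MAVER DMSO A or IB C, adjusted p 0.0502 to 0.0791) and of PFKFB4 (JEKO1 IB A, 0.0546). PKM lost its call when any 1 of 8 of the 12 libraries was left out (0.0563 to 0.116).

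**Figure D5:**
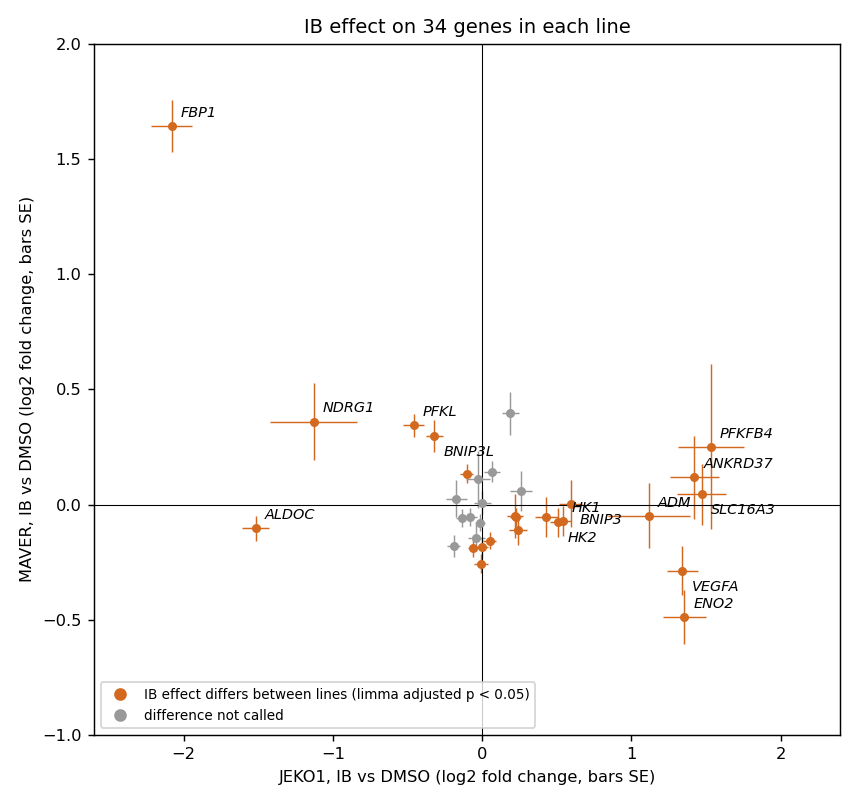
Effect of IB on 34 genes in JEKO1 (horizontal axis) and in MAVER (vertical axis), as log2 fold changes against DMSO with bars of 1 SE and lines at 0. Orange marks a difference between the lines at a limma adjusted p under 0.05. FBP1 lies alone at the upper left (-2.08 and 1.64), and VEGFA and ENO2 lie at the lower right.

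Other genes of carbohydrate metabolism and oxygen sensing were counted from 6 further lists. Each count stands beside the shares of all genes called, which were 27.3% higher and 28.5% lower with KPT, 27.6% and 27.5% with PU, 21.9% and 20.2% with IB in JEKO1, and 10.1% and 9.65% with IB in MAVER. Among 17 tested genes of glycolysis and glucose uptake outside the 35, KPT raised 2 and lowered 10, PU raised 4 and lowered 6, and IB raised 5 and lowered 4 in JEKO1 and raised 1 and lowered 4 in MAVER. With KPT, C12orf5 (TIGAR, which removes the activator of phosphofructokinase) fell from 367 ± 13.6 to 120.1 ± 1.79 (log2 -1.60), and SLC2A6, a hexose transporter, fell by 1.17. SLC2A5, the fructose transporter, fell by 0.93 with IB in JEKO1. Of 8 tested gluconeogenesis genes, KPT raised 1 and lowered 4 and PU raised 2 and lowered 4. PCK2 (0.68) and GOT1 (0.57) were those that rose with PU. IB raised 2 in JEKO1 and changed none in MAVER at this threshold in limma.

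Against the same shares of all genes, of 13 tested genes for the entry of pyruvate into mitochondria, KPT raised 6 and lowered 4, PU raised 4 and lowered 3, IB raised 2 and lowered 4 in JEKO1, and IB lowered 2 in MAVER. PDHA1, a subunit of pyruvate dehydrogenase, fell by 0.57 with PU, and the mitochondrial pyruvate carrier MPC1 fell by 0.65 with KPT. Among 11 tested genes of the pentose phosphate pathway, KPT raised 3 and lowered 5, PU raised 4 and lowered 6, IB raised 5 and lowered 2 in JEKO1, and IB raised 1 and lowered 2 in MAVER. TKT, transketolase, fell by 0.45 with KPT and 0.65 with PU, while H6PD, the dehydrogenase of the endoplasmic reticulum, rose by a log2 of 0.80 with PU.

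Of 12 tested HIF regulators, KPT raised 8 and lowered 1, beside 27.3% and 28.5% of all genes, with a median log2 fold change of 0.22 against 0.00 over all genes. CITED2, which competes with HIF for its coactivators, rose from 155 ± 12.7 to 280.3 ± 9.53 (log2 0.85). CREBBP, such a coactivator, rose by 0.35. The list holds genes that restrain HIF and genes that assist it, so its count gives no direction for HIF. PU raised 4 and lowered 3 of these 12, IB raised 1 and lowered 5 in JEKO1, and IB raised 1 and lowered 1 in MAVER. Among 37 other HIF targets tested in MAVER, KPT raised 19 and lowered 6, PU raised 18 and lowered 13, and IB raised 8 and lowered 8, and of 40 tested in JEKO1, IB raised 18 and lowered 8. Over all genes the shares higher and lower were 27.6% and 27.5% with PU, 10.1% and 9.65% with IB in MAVER and 21.9% and 20.2% with IB in JEKO1. No test was made of whether these lists differ from other genes. KLHL24 (2.31) and MXI1 (1.38), an antagonist of MYC, rose most clearly with KPT. With PU, P4HA2, a collagen prolyl hydroxylase, rose from 87.3 ± 5.52 to 1324 ± 32.2 (log2 3.91), and HMOX1, heme oxygenase, rose by 2.15. P4HA2 also rose with IB in MAVER, to 200.2 ± 26.7 (log2 1.18). CXCR4, a chemokine receptor, fell by 0.71 with IB in JEKO1 and rose by 0.44 with IB in MAVER, and KDM3A, a histone demethylase, rose by 0.77 in JEKO1.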

How the data were processed

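The deposited values are normalized counts, a signal per gene made by the authors, in 1 table for JEKO1 and 1 for MAVER. Per the submitters' processing notes, FastQC, STAR, Cufflinks, DESeq2 and the build hg19 were used, and per the labels' protocols libraries were stranded with single-end reads of 50 bp. No source used here names the counter, its strand setting or the annotation. Dividing by the step of each library returned whole reads for 100% of values (within 0.01 read).

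The members and the gene lists were chosen with earlier results of these data known. Log2(normalized count + 1) was tested with limma 3.58.1 (R 4.3.3, eBayes with trend) for genes whose mean reached 10, in JEKO1 over 6 libraries and in MAVER over 12. P-values were adjusted by Benjamini-Hochberg over all genes tested, and adjusted p under 0.05 was called. The script was tested on simulated data. Alternatives were edgeR 4.0.16 and DESeq2 1.42.0 on the recovered reads, other pseudocounts, filters and scalings, a replicate block and each library left out. Values in every library are given for genes called with an absolute log2 fold change of at least 1 in a comparison with DMSO, or called with at least 0.5 and in opposite directions in the 2 lines. Of the other lists, at most the 2 genes with the smallest adjusted p per comparison are named. In replicate pairs, counts differed by more than sampling noise (chi-square per degree of freedom 1.41 to 5.15 over 18 pairs), so no library was a copy of another. Promoters came from RefSeq on GRCh38.p14, matched by symbol for 30 of 35 genes, and no coordinate was carried between builds.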

Additional observations from a re-analysis of the deposited data

Results flagged for a closer look

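The IB response of 23 listed genes differed between JEKO1 and MAVER when the difference itself was tested (limma, adjusted p under 0.05, values as log2 JEKO1 minus MAVER, 3 libraries per group). In the upper pathway HK1 differed by 0.61, HK2 by 0.59, PFKM by 0.27 and ALDOA by 0.18, and PFKL by -0.80 and ALDOC by -1.41. Below aldolase, PGK1 differed by 0.21, PGAM1 by 0.48, ENO2 by 1.84 and PKM by 0.13. Of the lactate genes LDHA differed by 0.25, LDHB by 0.28, SLC16A1 by -0.24 and SLC16A3 by 1.43. PFKFB4 differed by 1.28, FBP1 by -3.72 and EGLN1 by 0.35. Of the HIF targets VEGFA differed by 1.63, NDRG1 by -1.49, BNIP3 by 0.59, BNIP3L by -0.62, ANKRD37 by 1.30 and ADM by 1.16. The calls of PFKM, ALDOA, PKM and PFKFB4 were lost under at least 1 setting that kept the JEKO1 labels as given, and exchanging the DMSO and IB labels turned the direction of 18 of the 23. EGR1, which is not a listed gene, differed by 8.26 in the same test, but this value is not counted as a result. Its MAVER libraries with IB held 0.963, 0 and 0 normalized counts, so the size of the difference depends on the pseudocount.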

How the results depend on the processing

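Leaving aside an exchange of JEKO1 labels, 4862 results of single listed genes under alternative settings were set against the main result. Of these, 4674 kept their side of the threshold, 149 lost the call and 39 gained it. Among results called in the main or the alternative setting, 0 changed direction. Direction was not counted where a gene was called in neither. Of 172 calls, 134 held under every one of these settings. SLC2A3 with IB in JEKO1 is included in both tallies and in the JEKO1 counts below, although its call is not counted as a result above. Without it, 22 of 34 genes were called there in the main setting. Counts of called genes, given as the main count and the range over alternatives, were 23 (20 to 26) for IB in JEKO1, 13 (9 to 13) for IB in MAVER, 19 (17 to 22) for KPT, 22 (19 to 22) for PU, 26 (22 to 28) for KPT against IB, 20 (17 to 22) for PU against IB, 26 (20 to 27) for PU against KPT and 23 (19 to 23) for the difference between lines. The lowest count for PU against KPT came without KPT A and KPT C, where calls over all genes fell too, an alternative added after seeing the data. Exchanging the DMSO and IB labels of JEKO1, also added, gave 19 called differences between lines, 6 of them positive and 13 negative, and 2424 over all genes against 4385. It turns the sign of each JEKO1 change by construction. A change of direction was counted only for genes called with either order of labels, so genes called with neither may also have turned. Of 34 differences between lines, 20 were counted as changed in direction, 2 lost the call and 2 gained it. The other 10 kept their side of the threshold. Those counted as changed in direction were HK1 (-0.47), HK2 (-0.43), GPI (0.37), PFKL (0.11), PFKM (-0.17), ALDOC (1.62), PGAM1 (-0.38), ENO1 (0.19), ENO2 (-0.87), LDHB (-0.17), SLC16A3 (-1.51), PFKFB4 (-1.78), FBP1 (0.44), EGLN1 (-0.13), VEGFA (-1.05), NDRG1 (0.77), BNIP3 (-0.60), BNIP3L (0.022), ANKRD37 (-1.54) and ADM (-1.07). Of the 23 called, LDHA, ALDOA and PKM kept direction and call. Deviations of libraries with the same letter had r from -0.04 to 0.12 over 3 pairs in JEKO1 and -0.09 to 0.10 over 18 pairs in MAVER. With so few libraries these values cannot show whether the letters pair samples. With the letter as a replicate block the counts were 26, 13, 20, 21, 26, 20, 25 and 23 in the same order. Over all genes the block gave 5507 calls against 4879 for IB in JEKO1 and 4710 against 4385 for the difference between lines. In every comparison within MAVER it gave fewer calls over all genes. Genes with a mean below 50 had no value under that filter. Each group had 3 libraries, and the smallest KPT library had 5374226 reads counted in genes. Small changes of genes near 10 normalized counts, such as PFKFB4 in MAVER, are therefore the least certain.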

Other observations

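TXNIP, which binds thioredoxin, lowers glucose uptake and is itself raised by glucose, was not among the 35 genes. It stood at 2090 ± 59.9 (SD, n = 3) with DMSO in MAVER, 2396 ± 63.1 with IB, 3299 ± 57.3 with KPT and 3148 ± 130 with PU. The log2 fold change against the same DMSO libraries was 0.20 with IB, 0.66 with KPT and 0.59 with PU (limma adjusted p = 2.4e-16 for KPT). In JEKO1 it fell from 919 ± 32.0 to 559 ± 64.7 with IB (log2 -0.72, limma adjusted p = 8.8e-08). EPCAM, an epithelial marker, ranged from 161 to 189 in MAVER with DMSO and from 263 to 299 with PU, and KRT18, also epithelial, from 10.1 to 18.1 and from 21.9 to 25.5, while KRT19 and CDH1 had means below 1. Their part in the PU results was not tested.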
